A study of Mus musculus with 6 samples.

Results

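The genes described here build, sulfate and supply the glycosaminoglycan chains of cartilage. They are 47 genes chosen by name for their known roles, with earlier results of these data known. All 47 are among the 24346 gene symbols measured. The cartilage is the mouse spheno-occipital synchondrosis, a growth cartilage of the cranial base, from which layers of flat and of round chondrocytes were cut by laser microdissection. The libraries carry the codes FP and RR, with 3 libraries each numbered 11, 14 and 16 in both groups. No label spells out the codes, so they are kept as codes. All 6 libraries share the genotype Gli1CreERT2; Tomato flox, and all share tamoxifen at postnatal day 3. In this genotype Gli1-expressing cells express a tamoxifen-inducible Cre recombinase, and a floxed Tomato reporter is present. The sources used here give neither the age at collection nor whether libraries came from separate or pooled animals. The p-values therefore reflect only how far these 6 samples scatter, and part of that scatter may be technical.

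Glycosaminoglycans are long sugar chains attached to proteoglycan core proteins such as aggrecan. A short linker is built on the protein first, and the chain is then extended in the Golgi as chondroitin or dermatan sulfate or as heparan sulfate. The cell supplies activated sugars and activated sulfate for this, and the sulfation pattern sets which proteins the chain binds. In growth cartilage the chondroitin sulfate of aggrecan holds water, and heparan sulfate chains bind growth factors and hedgehog ligands.

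Values are FPKM, which count fragments per transcript length and per library, so levels can be compared between genes. Between libraries the FPKM summed to 547371 at the lowest and 1126067 at the highest, and the main fit did not rescale them. Differences were tested with limma on log2(FPKM + 1) as FP minus RR over 14789 genes whose mean reached 1 FPKM, and a Benjamini-Hochberg adjusted p under 0.05 over all of them counted as past the threshold. On a 2000 bp transcript, 1 fragment was worth 0.128 to 0.298 FPKM, and the deepest library was 2.32 times as deep as the shallowest if the libraries were not rescaled against each other. Markers common to cartilage layers were present in every library, with the sum of 7 matrix markers at 48502 to 82016 FPKM in FP and 42615 to 88113 FPKM in RR. Most of this sum was Col2a1, whose groups overlapped, so it says little about the other markers. Acan, Col11a1 and Sox9 were each higher in FP without overlap. Their log2 changes of 0.94, 0.96 and 1.099 did not pass (limma adjusted p = 0.456, 0.403 and 0.216). The remaining matrix markers overlapped. Of 6 prehypertrophic and hypertrophic markers 5 were higher in FP, and of 6 resting zone markers 5 were lower. The exceptions were Mmp13 (log2 change -0.10) and Ucma (-0.59), whose groups overlapped. Mmp13 was highest in library 11 of both groups, at 19.2 FPKM in FP and 27.4 FPKM in RR. All 4 columnar chondrocyte markers (Comp, Prkg2, Epyc and Fgfr3) were higher, with a sum of 2726 to 3054 FPKM in FP and 199 to 344 FPKM in RR. Summed markers of bone, perichondrium, endothelium, blood, osteoclasts and neural cells overlapped between the groups, with 0 genes past the threshold. Among the bone markers, Ibsp alone was separate, ranging from 90.8 to 191 FPKM in FP but only from 7.18 to 41.6 FPKM in RR. Its log2 change of 3.08 ± 0.58 narrowly missed the threshold (limma adjusted p = 0.0571). Skeletal muscle markers summed to 107 to 156 FPKM in FP, with RR 11 in that range at 137 FPKM and RR 14 and RR 16 at 25.9 and 35.2 FPKM. RR 14 stood apart from the other libraries, with correlations of 0.766 to 0.817 to them where the others had 0.796 to 0.873 among themselves, and it was the shallowest. Without RR 14, Sulf2 was the 1 member past the threshold (adjusted p = 0.0179), of 63 genes in all. The part of any of these in the results was not tested.

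Of the 47 genes, 44 were tested, 1 was higher in FP (Slc35d1) and 1 was lower (Sulf2). Together they are 4.55% of those tested, against 0.967% of all genes. As the 47 genes were chosen with earlier results of these data known, such shares only describe them. The share of all genes higher in FP was 0.554% and the share lower was 0.412%. The other 42 did not pass, including Chst3, Chst15, Slc26a2, Ugdh and Ugp2, whose groups did not overlap. Chst7, Chst13 and Hs3st1 were too low to be tested, with means under 1 FPKM. Every FP value exceeded every RR value for 11 of the 44 tested genes, 25% against 8.74% of all tested genes, and every FP value was below every RR value for 4 genes, 9.09% against 7.28%. Estimates were above 0 for 25 of the 44, 56.8% against 51.6% of all tested genes. At an unadjusted p under 0.05, 7 were higher and 2 lower, where 5.77% and 4.55% of all tested genes were. The median log2 change of the 44 was 0.23, beside 0.02 over all tested genes. The 47 genes were also the more abundant, with a median level of 10.4 FPKM against 4.53 FPKM over all tested genes. With the filter at a mean of 5 FPKM, 2 of 32 members and 2.39% of all genes passed. The median log2 changes were then 0.40 for the members and 0.14 over all genes. The median of the 44 moved with single libraries, being 0.06 without FP 16 and 0.12 without RR 11, and it was 0.07 after quantile normalization. With each library rescaled to the same sum without the 100 highest genes, these medians were 0.06 and -0.13, so that all changes sit about that much lower.

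**Figure D1:**
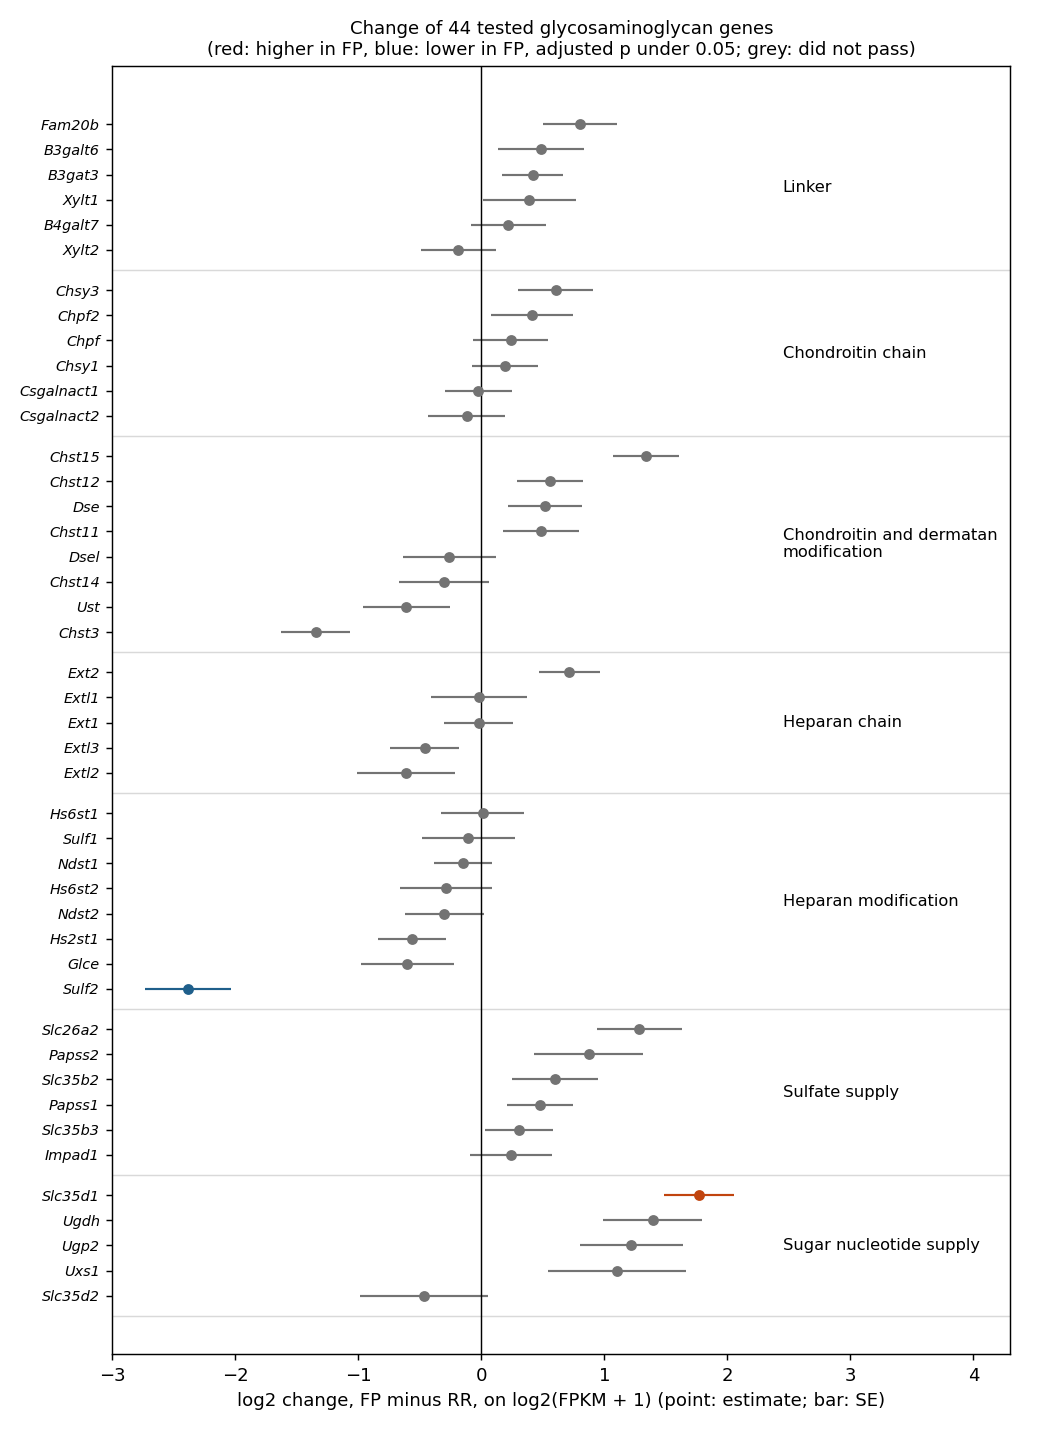
Log2 change, FP minus RR, on the log2(FPKM + 1) scale with its SE for the 44 tested genes, by step of the pathway, with red and blue for genes past the threshold. Slc35d1 (1.77) and Sulf2 (-2.38) are the coloured points, estimates of sulfate and sugar nucleotide supply lie above 0 in 10 of 11 genes, and those of heparan modification lie below 0 in 7 of 8.

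The 2 genes that passed sit in different parts of the pathway. The 250 bases before their start sites are shown because these are the members with a called difference, from RefSeq on GRCm38.p6, 5′ to 3′ on the gene's strand. Capitals mark GGGCGG, the GC box, on either strand.
Sulf2, chr2:166155684-166155933, minus strand: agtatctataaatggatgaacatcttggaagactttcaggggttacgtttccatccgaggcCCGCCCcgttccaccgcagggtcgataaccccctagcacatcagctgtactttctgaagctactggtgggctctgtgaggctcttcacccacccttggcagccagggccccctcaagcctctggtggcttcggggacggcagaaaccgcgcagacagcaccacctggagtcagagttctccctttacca
Slc35d1, chr4:103215177-103215426, minus strand: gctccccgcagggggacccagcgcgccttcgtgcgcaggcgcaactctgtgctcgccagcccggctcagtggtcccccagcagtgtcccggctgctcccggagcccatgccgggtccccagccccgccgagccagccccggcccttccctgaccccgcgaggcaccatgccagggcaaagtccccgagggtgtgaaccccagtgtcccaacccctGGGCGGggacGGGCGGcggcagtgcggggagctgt

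The Slc35d1 window is the richer in G and C, at 75.2% against 57.2% for Sulf2, and holds 2 GC boxes where the Sulf2 window holds 1. Another RefSeq start site of Sulf2 lies downstream and its window holds 0. RefSeq promoters were found for 37 of the 47 genes, with 47 windows in all. GGGCGG was in 30 of these windows (63.8%) and in 32.7% of all 32851 promoter windows of the same length. AACAAT, a SOX core motif, was in 2 windows (Extl2 and Papss2), 4.26% against 9.42% of all. TGACGTCA, the CRE, was in 1 window (Chpf), 2.13% against 1.55%. GACCACCCA, the GLI motif, was in 0 of the 47 windows and in 0.225% of all. These are matches of letters on both strands, and no site was measured in them. None of the 4 motifs contains another.

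Sugar nucleotides are made in the cytosol and carried into the lumen of the endoplasmic reticulum and Golgi. Slc35d1 rose in FP, and Ugdh and Ugp2, the enzymes before it, had groups that did not overlap but did not pass. Of the 5 genes of this step 4 had estimates above 0, with a median log2 change of 1.22.

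Slc35d1 codes for a transporter that brings UDP-glucuronic acid and UDP-N-acetylgalactosamine, the building blocks of chondroitin, into the endoplasmic reticulum. It lies on chromosome 4 (103170649 to 103215164, mm10, minus strand). It was at 45.6, 32.8 and 33.6 FPKM in FP libraries 11, 14 and 16 and at 12.5, 7.53 and 10.996 FPKM in RR libraries 11, 14 and 16. Every FP value was above every RR value, and the lowest FP value was more than 2 times the highest RR value. The means were 37.4 ± 7.14 and 10.3 ± 2.55 FPKM (SD, n = 3 each), a 3.61-fold difference, with a log2 change of 1.77 ± 0.28 (SE, limma adjusted p = 0.027997). The call was lost without any 1 of the 6 libraries (adjusted p 0.0528 without RR 11 to 0.136 without FP 16), and the log2 change then ran from 1.58 to 1.91. It was also lost without the intensity trend (adjusted p = 0.0591).

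Ugdh makes UDP-glucuronic acid from UDP-glucose. Its level was 54.4, 22.5 and 33.1 FPKM in FP and 19.4, 8.099 and 12.2 FPKM in RR, in the same library order. The groups were separate by a narrow margin, since FP 14 lay close above RR 11, and within each group library 11 was highest and library 14 lowest. The log2 change of 1.39 ± 0.41 did not pass (limma adjusted p = 0.235, 95% interval 0.47 to 2.32). Ugp2, which makes UDP-glucose, was at 15.8, 6.24 and 6.26 FPKM in FP and 5.13, 1.96 and 2.89 FPKM in RR, again highest in library 11 and lowest in library 14 of each group. Its log2 change was 1.22 ± 0.42 (limma adjusted p = 0.333).

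Uxs1 turns UDP-glucuronic acid into UDP-xylose, the sugar that starts the linker. It was at 50.8, 23.3 and 26.5 FPKM in FP and 25.1, 5.03 and 21.4 FPKM in RR, with RR 14 far below the other libraries and the groups overlapping. Its log2 change of 1.10 ± 0.56 had the widest error among the 44 genes (limma adjusted p = 0.582). Without RR 14 it was 0.43. Slc35d2, a related nucleotide sugar transporter, was low in every library, from 0.333 to 2.43 FPKM, and FP and RR overlapped. The ratio of Slc35d1 to Slc35d2 ran from 3.66 to 137 across the 6 libraries, so that Slc35d1 was the more abundant of the pair in each.

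Sulfate enters the cell through a membrane transporter, is activated to PAPS and is carried into the Golgi. All 6 genes of this step had estimates above 0, with a median log2 change of 0.54, but 0 passed the limma threshold. At an unadjusted p under 0.05, 1 of the 6 was higher, Slc26a2. Slc26a2, the sulfate transporter mutated in diastrophic dysplasia, was at 63.9, 34.2 and 32.95 FPKM in FP and 21.9, 12.2 and 16.7 FPKM in RR. Each FP value exceeded each RR value, and FP 11 stood above the other two FP libraries. The means of 43.7 ± 17.5 and 16.95 ± 4.85 FPKM differed 2.58-fold, with a log2 change of 1.28 ± 0.35 (limma adjusted p = 0.189, 95% interval 0.50 to 2.07).

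Papss2 and Papss1 code for the PAPS synthases, of which Papss2 is the one linked to skeletal dysplasia. Papss2 was at 124, 49.9 and 59.1 FPKM in FP and 60.4, 23.6 and 40.3 FPKM in RR, with library 11 highest and library 14 lowest in both groups. RR 11 lay above FP 14 and FP 16, so the groups overlapped (log2 change 0.87 ± 0.44, limma adjusted p = 0.578). The change was 0.48 without FP 11 and 0.53 without RR 14. Papss1 was lower, at 17.2, 12.8 and 16.9 FPKM in FP and 13.4, 8.66 and 11.02 FPKM in RR. The ratio of Papss2 to Papss1 was 3.498 to 7.22 in FP and 2.72 to 4.51 in RR. These ranges overlapped, and Papss2 was the higher of the pair in all 6 libraries.

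Slc35b2 and Slc35b3, the Golgi transporters of PAPS, had log2 changes of 0.60 ± 0.35 and 0.31 ± 0.28 (limma adjusted p = 0.6501 and 0.802). Impad1, the Golgi phosphatase that clears the by-product of sulfation, was at a mean of 14.2 ± 5.51 FPKM in FP against 11.5 ± 2.72 in RR (log2 change 0.24 ± 0.34, limma adjusted p = 0.882). In these 3 genes the groups overlapped. Under each of the other scalings, filters and pseudocounts tried, 10 of the 11 sugar nucleotide and sulfate supply genes had estimates above 0, as they had without any 1 library, except that 9 did without FP 11. With the filter at 5 FPKM, Slc35d2, at a mean of 1.23 FPKM, was not tested.

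**Figure D2:**
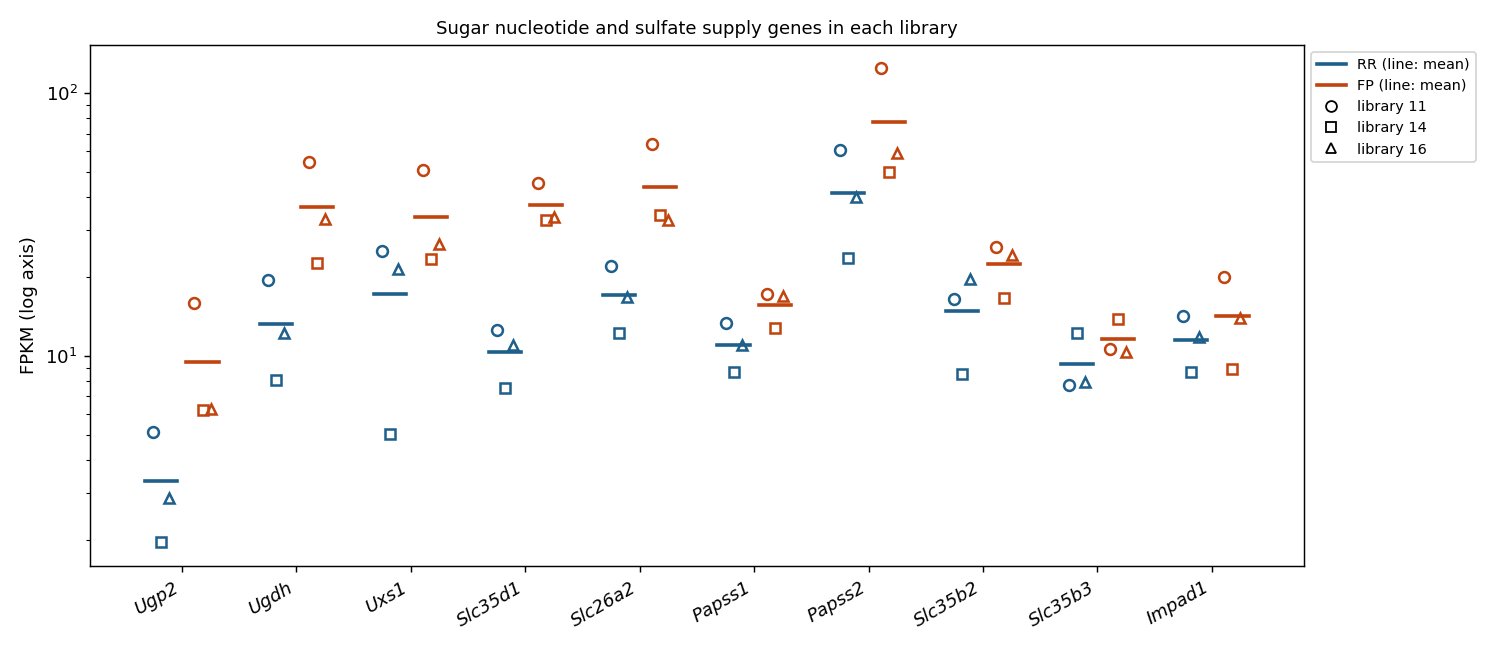
FPKM on a log axis in each library for 10 genes of sugar nucleotide and sulfate supply, with RR in blue, FP in red, symbols for the library number and lines for group means. Slc35d1 shows the widest gap between groups, and for Slc35d1, Ugdh, Ugp2, Uxs1, Papss1, Papss2 and Impad1 library 11 is highest and library 14 lowest in both groups.

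The linker joins every chondroitin and heparan chain to its protein. None of its 6 genes passed in limma. At an unadjusted p under 0.05, 1 of the 6 was higher, Fam20b. Estimates were above 0 for 5 genes and the median log2 change was 0.40. Xylt1, a xylosyltransferase that starts the linker, had the highest mean level of all 47 genes, 202 FPKM. It was at 157, 253 and 268 FPKM in FP and 109, 178 and 244 FPKM in RR, and the groups overlapped (log2 change 0.39 ± 0.38, limma adjusted p = 0.822, 95% interval -0.47 to 1.25). Fits without 1 library ran from 0.078 (without RR 11) to 0.66 (without RR 16) for Xylt1, with 0.25 without FP 16 and 0.63 without FP 11. Xylt2, the other xylosyltransferase, was at a mean of 7.71 ± 2.19 FPKM in FP against 8.91 ± 2.33 in RR. Xylt1 was 16.9 to 22.1 times Xylt2 in RR and 25.5 to 35.3 times in FP, ranges that did not overlap, a difference that was not tested.

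Fam20b, the kinase that phosphorylates the linker xylose and so lets chains extend, was at 30.4, 20.9 and 25.7 FPKM in FP and 17.6, 9.78 and 16.3 FPKM in RR. Each FP library was above each RR library, with the means 1.76-fold apart and a log2 change of 0.80 ± 0.30 (limma adjusted p = 0.398). B3gat3, the glucuronyltransferase that completes the linker, was at 15.2, 13.9 and 12.8 FPKM in FP and 11.2, 8.49 and 11.2 FPKM in RR, also without overlap (log2 change 0.42 ± 0.25, limma adjusted p = 0.661). B3galt6, a galactosyltransferase, was the lowest of the linker genes, at 1.76, 1.52 and 2.23 FPKM in FP and 1.51, 0.886 and 0.732 FPKM in RR. The galactosyltransferase that acts before it, B4galt7, was at a mean of 16.4 ± 5.92 FPKM in FP against 13.3 ± 0.685 in RR, with overlap.

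The chondroitin chain is started by Csgalnact1 and Csgalnact2 and extended by the Chsy and Chpf proteins. These 6 genes held 0 that passed in limma, and 0 at an unadjusted p under 0.05. Their median log2 change was 0.21, and 5 of the 6 had overlapping groups. Chpf2, the highest of them, was at 22.6, 35.2 and 37.8 FPKM in FP and 16.5, 22.8 and 32.96 FPKM in RR (log2 change 0.41 ± 0.33, limma adjusted p = 0.772). Chpf was at 20.1, 22.6 and 34.97 FPKM in FP and 17.2, 20.5 and 26.7 FPKM in RR, with library 16 highest in both groups (log2 change 0.24 ± 0.30, limma adjusted p = 0.866). Chsy3, a chondroitin synthase, was the exception to the overlap, at 11.2, 16.6 and 13.02 FPKM in FP and 5.72, 10.7 and 9.84 FPKM in RR (log2 change 0.60 ± 0.30, limma adjusted p = 0.574). Its margin was narrow, since FP 11 lay just above RR 14. Single libraries moved these values, with Chpf2 at 0.18 without RR 11 and at 0.63 and 0.66 without FP 11 and RR 16. Chpf went to 0.0081 without FP 16, to 0.098 without RR 11, and to 0.39 and 0.40 without FP 11 and RR 16, and Chsy3 to 0.35 without RR 11.

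Among the chain starters, Csgalnact1 had nearly equal means, 21.5 ± 5.301 FPKM in FP and 21.6 ± 2.53 in RR. Its log2 change was -0.02 ± 0.28, with a 95% interval of -0.65 to 0.60, so a change of up to about that size either way remains compatible with these values. Csgalnact1 was 2.47 to 4.19 times Csgalnact2 across the 6 libraries. Chsy1 was at a mean of 12.6 ± 2.29 FPKM in FP against 10.9 ± 2.31 in RR (95% interval of the log2 change -0.42 to 0.80).

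Sulfation of chondroitin involves enzymes that differ in the position they modify, and here estimates went in both directions. Of 10 genes, 8 were tested and 0 passed in limma, while at an unadjusted p under 0.05 Chst15 was higher and Chst3 lower. Chst3, the 6-O-sulfotransferase of chondroitin, was at 2.497, 2.64 and 3.01 FPKM in FP and 6.76, 7.49 and 11.7 FPKM in RR. The FP values were close together and all below the RR values, among which RR 16 was highest. Means of 2.71 ± 0.263 and 8.64 ± 2.64 FPKM were 3.19-fold apart, and the log2 change of -1.35 ± 0.28 missed the threshold (limma adjusted p = 0.0833, 95% interval -1.98 to -0.71). After rescaling without the 100 highest genes Chst3 passed, with a log2 change of -1.49 (limma adjusted p = 0.0383).

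Chst15 adds a 6-O-sulfate to residues that already carry a 4-O-sulfate. It was at 9.08, 7.44 and 6.02 FPKM in FP and 1.899, 2.495 and 2.63 FPKM in RR, again without overlap but with FP on the higher side. Its means were 3.21-fold apart, with a log2 change of 1.34 ± 0.27 (limma adjusted p = 0.0705, 95% interval 0.73 to 1.95). Chst15 exons share 592 bases, 11.3% of its exon bases, with a gene on the opposite strand (Gm10584), and the sources used here do not say whether counting used strand. Other genes named here share exon bases too, among them Chpf2 (12.0%, Smarcd3), Fam20b (8.8%) and Sdc3 (8.3%) on the opposite strand. Ugdh shares 6.2% with Gm43552 on the same strand. Within a library the ratio of Chst15 to Chst3, which does not depend on scaling between libraries, was 2.003 to 3.64 in FP and 0.226 to 0.333 in RR. Chst15 was thus above Chst3 in each FP library and below it in each RR library, values that were not tested as a ratio.

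The 4-O-sulfotransferases of chondroitin, Chst11 and Chst12, were the most abundant genes of this step. Chst11 was at 139, 103 and 128 FPKM in FP and 102, 60.9 and 107 FPKM in RR, and RR 11 and RR 16 were close to FP 14 (log2 change 0.48 ± 0.31, limma adjusted p = 0.691; 0.23 without RR 14). Chst12 was at 78.4, 74.9 and 90.7 FPKM in FP and 50.9, 45.8 and 70.3 FPKM in RR, without overlap (log2 change 0.56 ± 0.27, limma adjusted p = 0.5503). The ratio of Chst11 to Chst3 was 39.3 to 55.6 in FP and 8.13 to 15.1 in RR. The ratio of Chst11 to Chst12, by contrast, overlapped, at 1.38 to 1.77 in FP and 1.33 to 2.01 in RR.

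Chst7, another chondroitin 6-O-sulfotransferase, was listed at 0 in all 3 FP libraries and at 1.76, 1.61 and 0.474 FPKM in RR. A value of 0 in these files can be a failed estimate, since 5 libraries list 0 for Rpl26, which codes for a ribosomal protein. Chst13, a further 4-O-sulfotransferase, was listed at 0 in FP 14 and RR 16 and reached 3.68 FPKM in RR 14. Of the dermatan genes, Dse, the epimerase that turns chondroitin into dermatan, was at a mean of 8.74 ± 2.47 FPKM in FP against 5.74 ± 1.45 in RR. Its relative Dsel (log2 change -0.26 ± 0.38) and the dermatan 4-O-sulfotransferase Chst14 (log2 change -0.30 ± 0.37) overlapped between groups, as did Dse. Ust, the uronyl 2-O-sulfotransferase, was low at 1.64, 1.01 and 0.575 FPKM in FP and 2.49, 1.83 and 2.01 FPKM in RR, with FP below RR in all libraries (log2 change -0.61 ± 0.35, limma adjusted p = 0.6501).

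**Figure D3:**
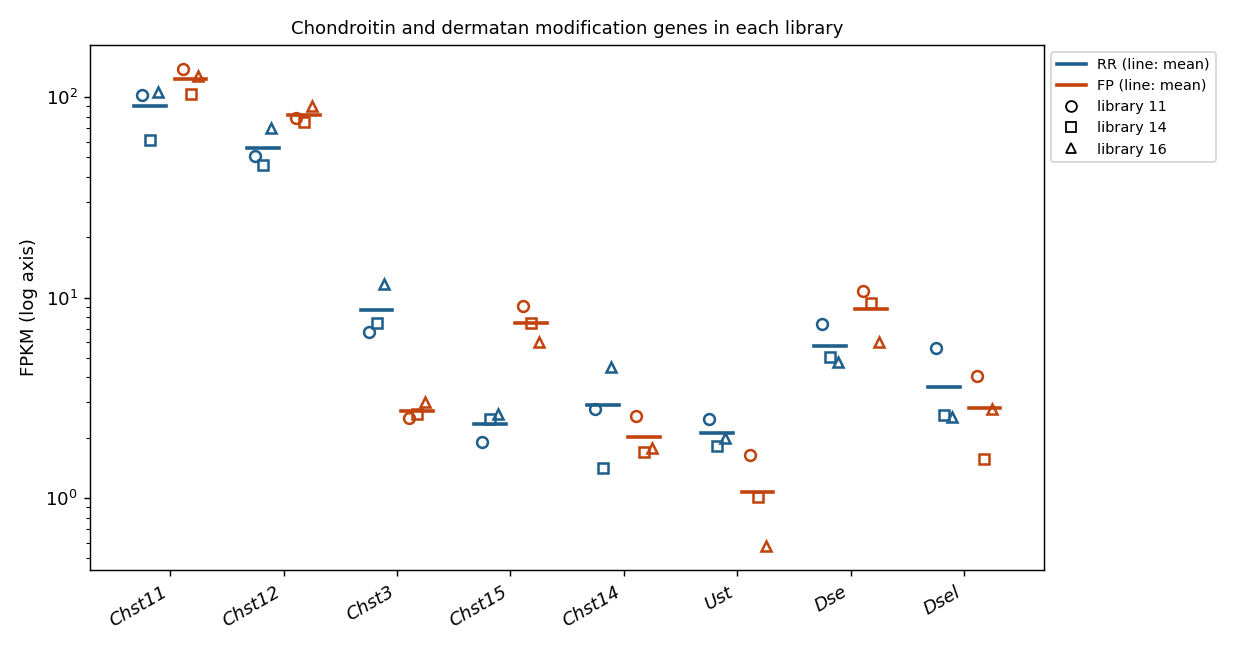
FPKM on a log axis in each library for 8 chondroitin and dermatan modification genes, with RR in blue, FP in red, symbols for the library number and lines for group means. Chst3 and Chst15 lie on opposite sides between the groups, with Chst3 lower and Chst15 higher in FP, and Chst11 and Chst12 are the most abundant in both groups.

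Heparan chains are built by the Ext and Extl proteins, of which Ext1 and Ext2 form the polymerase. None of the 5 genes passed in limma, and at an unadjusted p under 0.05 only Ext2 was higher. Ext2 was at 26.7, 27.8 and 25.9 FPKM in FP and 14.3, 14.6 and 19.2 FPKM in RR, with tight FP values all above RR. Its log2 change was 0.72 ± 0.24 (limma adjusted p = 0.328, 95% interval 0.16 to 1.27). Ext1 was at 10.6, 15.3 and 10.5 FPKM in FP and 15.4, 10.3 and 11.3 FPKM in RR, with overlap and a log2 change of -0.02 ± 0.28 (95% interval -0.66 to 0.61). The ratio of Ext1 to Ext2 was therefore lower in FP, at 0.397 to 0.551, than in RR, at 0.587 to 1.07, and was not tested.

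Of the 3 Extl genes, Extl3, whose product starts the heparan chain, was at 5.71, 4.04 and 7.37 FPKM in FP and 6.86, 8.87 and 8.503 FPKM in RR (log2 change -0.46 ± 0.28, limma adjusted p = 0.6703; -0.27 without FP 14). Extl2, a transferase that can end linker extension, was at 6.05, 2.01 and 2.01 FPKM in FP and 7.07, 3.71 and 5.001 FPKM in RR, where FP 11 lay within the RR range (log2 change -0.61 ± 0.40, limma adjusted p = 0.6999). It was -1.02 without FP 11 and -0.41 without FP 14 or FP 16. Extl1, the highest gene of this step by its mean over all libraries, was at 18.9, 22.9 and 27.8 FPKM in FP and 14.1, 21.6 and 41.1 FPKM in RR. Its RR values were spread the widest and RR 16 alone lay above the FP values, and its log2 change was -0.02 ± 0.39 (95% interval -0.90 to 0.86), but 0.38 without RR 16 and -0.36 without RR 11.

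Heparan chains are then modified in the Golgi and trimmed outside the cell, and here 1 gene fell in FP, Sulf2. Of 9 genes 8 were tested, 7 had estimates below 0, and the median log2 change was -0.30. Sulf2 codes for an extracellular sulfatase that removes 6-O-sulfates from heparan sulfate and so alters how growth factors and Wnt proteins bind. It lies on chromosome 2 (166073089 to 166155663, mm10, minus strand). Sulf2 was at 24.7, 16.5 and 22.7 FPKM in FP libraries 11, 14 and 16 and at 126, 71.9 and 163 FPKM in RR libraries 11, 14 and 16. The highest FP value was below the lowest RR value by a factor of more than 2, and library 14 was lowest in both groups.

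In means, Sulf2 was 5.65-fold lower in FP, at 21.3 ± 4.28 against 120.3 ± 45.7 FPKM (SD, n = 3 each). The log2 change was -2.38 ± 0.35 (SE, limma adjusted p = 0.0203). In layers of cartilage cut whole, fewer cells with the transcript and less transcript per cell cannot be told apart, for Sulf2 as for the other genes. The call was lost without FP 14 (adjusted p = 0.10), FP 16 (0.112), RR 11 (0.0618) or RR 16 (0.0656), while the log2 change stayed between -2.71 and -2.13 in the fits without 1 library. Sulf2 was the third most abundant of the 47 genes by its mean over all libraries, and the second in RR. Its exons share 154 bases, 3.1%, with Ncoa3 on the opposite strand.

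Sulf1, the other extracellular sulfatase, was low, at 2.17, 3.003 and 1.67 FPKM in FP and 1.53, 4.601 and 2.0002 FPKM in RR. Its groups overlapped, with a log2 change of -0.11 ± 0.38 (limma adjusted p = 0.967, 95% interval -0.97 to 0.75). Sulf2 exceeded Sulf1 in every library, by 15.6 to 82.6 times in RR and 5.496 to 13.6 times in FP.

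The enzymes that place sulfate on heparan were at low to middling levels. Hs2st1, the 2-O-sulfotransferase, was at 3.202, 2.29 and 2.69 FPKM in FP and 5.098, 3.36 and 5.19 FPKM in RR, with FP below RR without overlap (log2 change -0.56 ± 0.28, limma adjusted p = 0.559). Glce, the epimerase that makes iduronic acid before that step, was at 7.61, 3.11 and 4.32 FPKM in FP and 11.4, 4.95 and 7.901 FPKM in RR, with library 11 highest and library 14 lowest in each group (log2 change -0.60 ± 0.38, limma adjusted p = 0.686; -0.36 without FP 14 and -0.34 without RR 11). Ndst1, an enzyme that removes acetyl groups and adds N-sulfate, was steady, between 6.63 and 8.73 FPKM in the 6 libraries (log2 change -0.15 ± 0.24, 95% interval -0.69 to 0.39). Ndst2, of the same family, ran from 2.8 to 7.14 FPKM (log2 change -0.30 ± 0.32).

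The heparan 6-O-sulfotransferases, whose product the extracellular sulfatases remove, were low in both groups. Hs6st1 was at a mean of 3.14 ± 1.15 FPKM in FP against 3.13 ± 1.24 in RR, with a log2 change of 0.01 ± 0.34 and a 95% interval of -0.75 to 0.77. Hs6st2 was at 1.12 ± 0.598 and 1.54 ± 0.315 FPKM (log2 change -0.29 ± 0.38). Hs3st1, a 3-O-sulfotransferase, was below the level tested, listed at 0 in RR 16 and at most at 1.85 FPKM in FP 14.

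**Figure D4:**
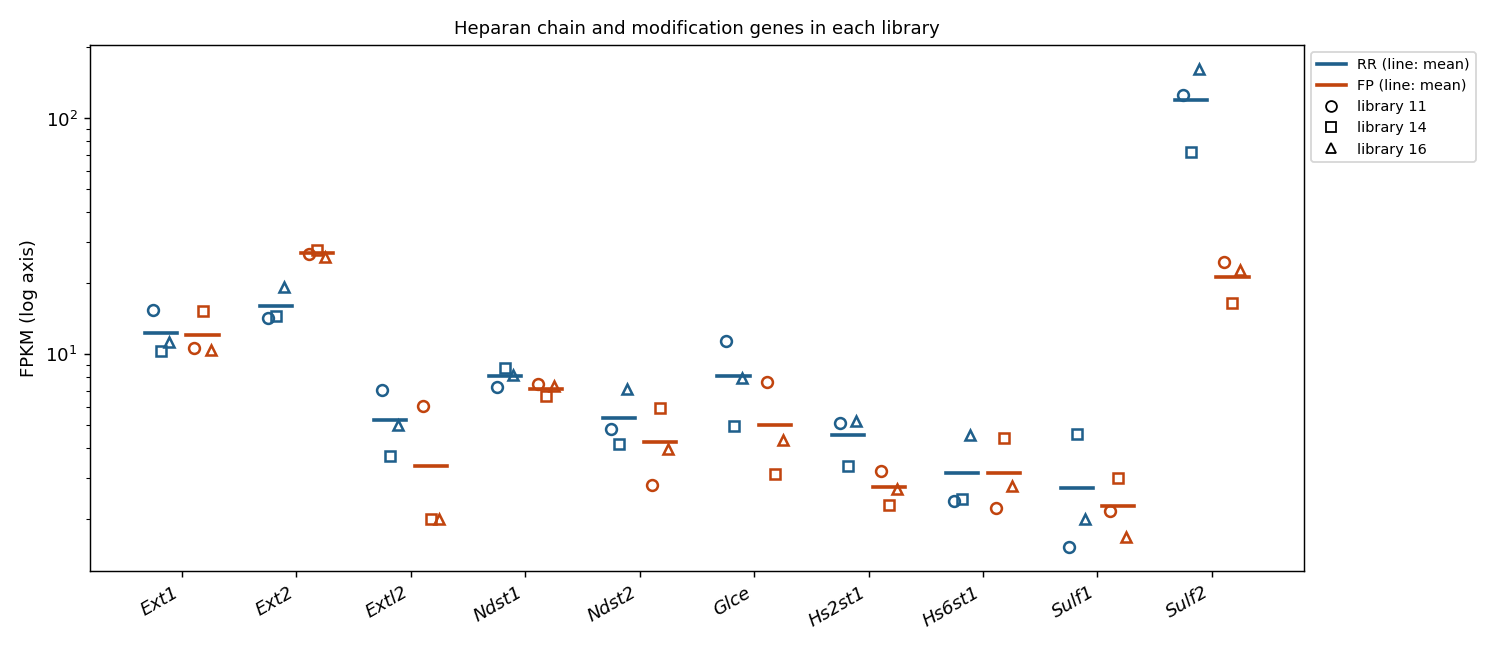
FPKM on a log axis in each library for 10 heparan chain and modification genes, with RR in blue, FP in red, symbols for the library number and lines for group means. Sulf2 in FP, at 16.5 to 24.7 FPKM, is separate from RR, at 71.9 to 163 FPKM, and Ext2 and Hs2st1 also have separate groups, while Ext1, Ndst1 and Hs6st1 overlap.

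Genes next to these steps were taken from 8 lists of 94 measured genes, of which 86 were tested, 5 were higher and 1 lower in FP, 6.98% against 0.967% of all genes. These lists too were chosen with earlier results of these data known. Among 6 tested heparan sulfotransferases outside the 47 genes, Hs3st3a1 and Hs3st3b1 rose, both of the 3-O-sulfotransferase type. Hs3st3b1 was at 13.1, 10.5 and 12.8 FPKM in FP and 2.24, 2.67 and 2.82 FPKM in RR, with FP far above RR (log2 change 1.87 ± 0.25, limma adjusted p = 0.01297). Hs3st3a1 was at 10.4, 14.9 and 18.2 FPKM in FP and 1.598, 3.29 and 4.13 FPKM in RR, likewise without overlap (log2 change 1.98 ± 0.34, limma adjusted p = 0.0377). The 2 genes are close paralogs whose catalytic domains are nearly identical, so reads may have been split between them, and 32.9% of Hs3st3a1 exon bases overlap F930015N05Rik on the opposite strand. The Hs3st3b1 call was lost without FP 16 (adjusted p = 0.0850), and the Hs3st3a1 call without any 1 of the 6 libraries (up to 0.176). The Hs3st3a1 call was also lost without a filter on low values, without the intensity trend and after quantile normalization.

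Of 21 proteoglycan core protein genes, 3 rose in FP (Epyc, Hspg2 and Sdc3) and Dcn fell, 19% against 0.967% of all genes. This list had a high median level, 99.2 FPKM against 4.53 FPKM over all tested genes. Hspg2, which codes for perlecan, a heparan sulfate proteoglycan of the pericellular matrix, was at 507, 546 and 601 FPKM in FP and 124, 142 and 194 FPKM in RR (log2 change 1.86 ± 0.29, limma adjusted p = 0.0261). Sdc3, a membrane heparan sulfate proteoglycan, was at 196, 177 and 230.2 FPKM in FP and 45.5, 31.4 and 73.9 FPKM in RR (log2 change 2.06 ± 0.35, limma adjusted p = 0.0341). Neither overlapped between groups, and when libraries were left out 1 at a time each call held in 1 of 6 fits (largest adjusted p 0.176 and 0.182). Epyc, a small leucine-rich proteoglycan, had a log2 change of 3.40 ± 0.55 (limma adjusted p = 0.0305), with 40.6% of its exon bases opposite Gm10754, and Dcn, the dermatan sulfate proteoglycan decorin, one of -2.0 ± 0.34 (limma adjusted p = 0.0341). The Epyc call held in 1 and the Dcn call in 0 of those 6 fits. Without the intensity trend the Sdc3, Epyc and Dcn calls were lost, as was the Epyc call with a pseudocount of 0.1. Epyc is also among the columnar chondrocyte markers.

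The other 6 lists held 0 genes past the limma threshold. Among 17 hexosamine and sugar nucleotide genes, Galk1, the galactokinase, had a log2 change of 0.92 ± 0.24 (limma adjusted p = 0.179). Pxylp1, the phosphatase that takes the phosphate off the linker xylose, was at 8.94, 4.49 and 9.495 FPKM in FP and 26.5, 11.1 and 21.7 FPKM in RR, all FP below all RR, and Tmem165, a Golgi protein needed for glycosylation, had a log2 change of 0.75 ± 0.29 (limma adjusted p = 0.279 and 0.403). Of 16 lysosomal breakdown genes 12 had estimates below 0 (median -0.23) and 25% had estimates above 0, beside 51.6% of all tested genes. The smallest p-values of the list were those of Glb1, a galactosidase, at -1.03 ± 0.37, and Naglu, a glucosaminidase, at -0.58 ± 0.27 (limma adjusted p = 0.368 and 0.524). Keratan sulfate genes (median -0.07; St3gal1 0.74 ± 0.33, St3gal2 -0.56 ± 0.32), hyaluronan genes (median -0.08; Hyal2 -0.38 ± 0.29, Cemip -0.24 ± 0.28) and other sulfate transport genes (median 0.18; Bpnt1 0.43 ± 0.34, Slc26a11 0.42 ± 0.42) did not pass. At an unadjusted p under 0.05, 5 of the 59 tested genes of these 6 lists were higher and 2 lower, where 5.77% and 4.55% of all tested genes were.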

How the data were processed

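Total RNA of 6 laser-microdissected cartilage libraries was taken up in QIAzol and prepared with a SMARTer stranded pico kit, per the labels. Per the file headers, the deposited values of each library are FPKM. The submitters' processing notes name TopHat2 2.1.1, Bowtie2 2.2.8, SAMtools 0.1.18, Cuffdiff 2.2.1 and mm10. The sources used here do not give the gene annotation, scaling between libraries or use of strand. Depth was read from low values, which fell on steps of 1 fragment (FPKM times length, genes with a single transcript of 1500 to 3000 bp). The step of each library was the one that best fitted these same values. At that step 70.6% to 74.8% were whole within 0.1 fragments, beside 20% for evenly spread values at a step fixed beforehand. The share expected at a fitted step was not computed. Total fragments are unknown.

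Libraries were grouped by the title codes FP and RR. The test was limma 3.58.1 (R 4.3.3, intensity trend, two-sided) on log2(FPKM + 1), and the fit was tested on simulated data. This scale understates changes of low genes. Fold values are ratios of mean FPKM. An exact permutation of 3 against 3 cannot go below p = 0.1 and was not used. The members and lists were chosen with earlier results of these data known. Each member is accounted for, and full values are given for those past the threshold, the 3 of smallest p and the highest of each step, and those past it with the library number as a block at a mean of at least 5 FPKM. Of the neighbouring genes, those past the threshold and up to 2 per list are named. One gene this rule names is not reported here. Ratios, promoter windows and any member outside this rule were chosen after values were seen. Coordinates are GENCODE M21 on mm10, where all 47 members were found, and promoters are RefSeq on GRCm38.p6. Alternatives changed the pseudocount (0.1, 5), the filter (none, 5 FPKM), the trend, the scaling, library weights, the block and the libraries kept.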

Additional observations from a re-analysis of the deposited data

How the results depend on the processing

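The count of members past the threshold, 2 with all libraries, was 1 without the intensity trend, 0 to 1 without 1 library and 0 without both libraries numbered 11, 14 or 16 (0 in each). Over all genes the count of 143 became 83 without the trend, 42 to 85 without 1 library, and 42, 8 and 20 without both libraries numbered 11, 14 and 16. The related genes went from 6 to 2 without the trend, 0 to 3 without 1 library, and 0 without both libraries of any number. The split over all genes turned from 82 higher and 61 lower to 73 and 84 after rescaling without the 100 highest genes, and to 66 and 65 after quantile normalization. Fewer samples enter the fits that leave libraries out, and a lone pair is assumed to vary like the rest. For the trend the cause was not tested. Of 446 values of 25 named members under 18 alternatives, 420 kept their direction and side of the threshold, 17 lost the call (Sulf2 in 7, Slc35d1 in 10), 4 gained it and 5 changed sign, none of them called. Xylt1 changed sign with quantile normalization (-0.028), and Extl1 with array weights (0.11), without FP 11 (0.11), without RR 16 (0.38; range without 1 library -0.36 to 0.38) and without both libraries numbered 16 (0.24). Chst15, Extl2, Hs2st1 and B3galt6 have no value with the filter at 5 FPKM.

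The labels do not say what the library number marks. Deviations from the group means correlated across genes at r = 0.32, 0.19 and 0.09 between the FP and RR libraries numbered 11, 14 and 16, and each library correlated best with its own number, which is a hint from the data and not from the design. With the number as a block, 5 members passed (Chst3, Slc26a2, Slc35d1, Sulf2 and Ugdh, adjusted p = 0.0467, 0.0375, 0.0127, 0.00714 and 0.0196), 271 genes in all and 10 related genes, among them Pxylp1 (adjusted p = 0.0397). In RR 14, the shallowest library, the median tested gene would hold 14.8 fragments on a 2000 bp transcript.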
